A study of Mus musculus with 28 samples.

Results

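The comparison described here is that of Rai1 knockdown with normal activity: nascent RNA of 3 libraries labelled shRai1 and vehicle against 2 libraries labelled shCtrl and vehicle, 5 of the 16 Bru-seq libraries of the series. All groups were made from CD1 mice: cortices and hippocampi of embryonic day 18 embryos were pooled so that each pool had a matched sex ratio, and the dissociated cells were grown as a mixture of neurons, astrocytes and oligodendrocyte precursor cells. On day 14 in vitro a lentivirus was added that delivered a control hairpin (shCtrl) or a hairpin that targets the Rai1 transcript (shRai1). On day 17 they were given water as vehicle for 4 hours, and the groups used for contrast received 1 µM of tetrodotoxin (TTX, a sodium channel blocker that silences firing) or 20 µM of bicuculline (BIC, a GABA-A receptor antagonist that raises firing). Bromouridine at 2 mM was present for the last 20 minutes. Bru-seq recovers the RNA that took up bromouridine and so reads out transcription of the preceding minutes, introns included, and not the stock of mature mRNA. The authors' deposited table for this comparison held 22919 genes, of which 21192 had a test. Genes were kept when their mean normalized count over all libraries was at least 50, which left 12333 genes, or 58.2% of those tested.

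RAI1 is a chromatin-associated protein found mostly at active promoters, and loss of 1 of its copies causes Smith-Magenis syndrome, with intellectual disability, disturbed sleep and obesity. In neurons, synaptic activity switches on immediate early genes, most of which encode transcription factors such as FOS and EGR1, and then effector genes whose products act at synapses or are secreted. Oligodendrocyte precursor cells give rise to myelinating oligodendrocytes. Their identity rests on the receptor PDGFRA, which receives the growth factor PDGF, and on the transcription factors OLIG1, OLIG2 and SOX10.

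The files hold 1 estimate per gene and comparison and no value per library, so the spread between libraries enters only through the deposited standard error (SE). Its median over the 12333 genes was 0.12 on the log2 scale, with a range of 0.06 to 0.41. The replicate numbers in the labels were 1, 2 and 3 for shRai1 in vehicle but only 1 and 2 for shCtrl in vehicle, so replicate 3 has no shCtrl counterpart of its number. Each replicate was a pool of embryos, and the labels do not say whether equal numbers mark the same pool across groups. The labels name 1 hairpin for each arm. Rai1 itself gave no check of the labels: its nascent RNA had a log2 change of 0.16 ± 0.07 (SE) with the authors' adjusted p at 0.357, and an shRNA acts on the mature mRNA. The authors' FPKM table in the shCtrl vehicle group, a pooled value per gene scaled by length and depth, was used to check the labelled cell types. All 16 neuron markers were at 1 FPKM or above, led by Tubb3 at 151.5, as were 15 of 16 astrocyte markers, led by Glul at 190.6, and 15 of 18 precursor markers, led by Olig1 at 70.9. Among 13 genes of myelinating oligodendrocytes 5 reached 1 FPKM, with Opalin and Aspa listed at 0. Among 14 microglial genes 8 did, with C1qc and Tyrobp listed at 0, and 2 of 14 vascular and fibroblast genes did.

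In vehicle, 119 of the 12333 genes (0.965%) had an authors' adjusted p under 0.05, and these are the genes called below. All log2 changes in vehicle, their SEs and their adjusted p-values come from the authors' deposited table. Of these, 101 genes (0.819% of all) were lower and 18 (0.146%) higher in the cultures labelled shRai1, so that 84.9% of the calls were falls. The fold changes were moderate. The called falls had a median log2 change of -0.47 and ran from -0.25 to -1.37, and the called rises had a median of 0.39 and ran from 0.24 to 0.72. Only 2 genes changed by more than 1 on the log2 scale, Pdgfra and the linker histone gene Hist1h1e, and 46 falls but 1 rise reached 0.5. The median of all 12333 genes was -0.01, with 90% of them between -0.30 and 0.25. The authors' scaling between libraries sets the centre of this distribution, so the changes are relative to the bulk of genes and a shift of all genes together would not show. Without adjustment 1513 genes had a p under 0.05, of which 885 were lower and 628 higher.

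**Figure D1:**
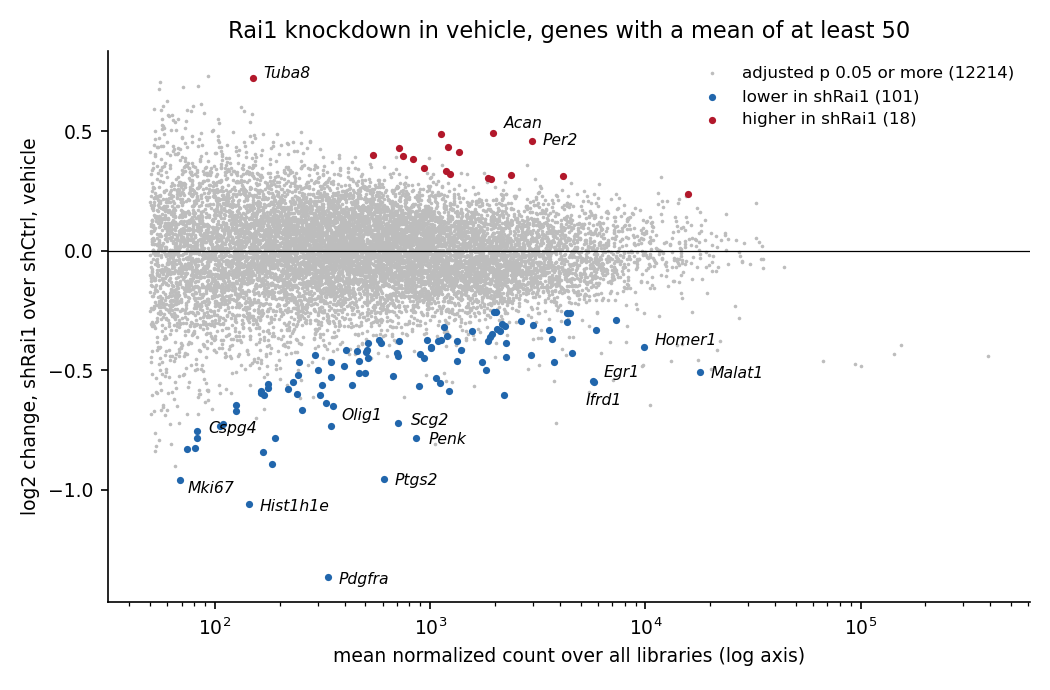
The log2 change of nascent RNA in shRai1 over shCtrl cultures in vehicle (vertical axis) is plotted against the mean normalized count over all libraries (horizontal log axis), 1 point per gene, with 101 called falls in blue, 18 called rises in red and the other genes in grey. Pdgfra stands apart at the bottom at -1.37, and the called falls reach from genes with a mean count under 100 to Malat1 above 10000.

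Genes of oligodendrocyte precursors held the deepest fall. Pdgfra, the PDGF receptor (mm9 chr5:75548316-75594229, an interval it shares with the microRNA gene Mir7025), fell by 61.2%: its log2 change in the authors' deposited table was -1.37 ± 0.13 (SE), with an adjusted p of 6.02e-21. Cspg4, the NG2 proteoglycan on the surface of these cells, fell with a log2 change of -0.78 ± 0.15 and an adjusted p of 4.28e-04. The transcription factor genes Olig1 and Olig2 fell by 0.73 ± 0.13 (adjusted p 2.89e-05) and 0.60 ± 0.15 (adjusted p 0.0164) on the log2 scale. These 4 were the called members among 12 of 18 listed precursor genes that passed the minimum count, against 0.819% of all genes, and the list had a median of -0.56. Members that missed the threshold included Sox10, the master regulator of the lineage, at -0.90 ± 0.26 (adjusted p 0.0664), and Bcas1, which marks cells on the way to myelination, at -0.79 ± 0.26. Not all of the list was low: Tnr, Lhfpl3 and Megf11 lay between 0.01 and 0.21. In a mixed culture fewer cells of a type and less RNA per cell cannot be told apart, here and for every cell type below.

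Histone genes had the next lowest median of the lists. Replication-dependent histone genes lie in clusters, lack introns and are transcribed in S phase. The list took 61 genes by the names of these clusters, and not all of them need be of this kind. Of the 61 genes 35 passed the minimum count, with a median of -0.45. A negative log2 change was seen in 34 of the 35, against 6322 of all 12333 genes. Of the 35 genes 5 fell (14.3%, against 0.819% of all genes), and all 5 have mean counts under 200. They were Hist1h1e (-1.06 ± 0.21, adjusted p 4.13e-04), Hist1h1d (-0.89 ± 0.18, adjusted p 1.14e-03), Hist1h2bg (-0.73 ± 0.21), Hist1h4k (-0.67 ± 0.18) and Hist1h3e (-0.64 ± 0.18), the first 2 encoding linker histones and the others core histones. The last 3 had the authors' adjusted p between 0.0387 and 0.0453 and missed the threshold when p-values were adjusted over all named genes (0.0547 to 0.0639). Histone genes are near-identical copies of each other, and how reads that fit several copies were counted is not given in the sources used here, so the value of a single copy is uncertain. The spread within the list was wide, from -1.06 to 0.05.

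To show what the called linker histone genes share upstream, 100 bases before and 50 after their start sites are given, from RefSeq's promoters on GRCm38.p6, 5′ to 3′ on the gene's strand, with CCAAT and TATAAA in capitals. Hist1h1e is H1f4 in RefSeq (chr13:23622509-23622658, minus strand) and Hist1h1d is H1f3 (chr13:23554932-23555081, plus strand).
Hist1h1e: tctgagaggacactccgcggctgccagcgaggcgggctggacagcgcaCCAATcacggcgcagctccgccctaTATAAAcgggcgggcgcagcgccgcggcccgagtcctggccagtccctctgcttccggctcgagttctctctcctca
Hist1h1d: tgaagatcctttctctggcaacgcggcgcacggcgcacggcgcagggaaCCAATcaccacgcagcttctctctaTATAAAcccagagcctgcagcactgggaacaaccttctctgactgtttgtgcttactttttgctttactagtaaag
CCAAT begins 52 bases before the start in Hist1h1e and 51 in Hist1h1d, and TATAAA 27 and 26. In windows of 300 bases (250 before and 50 after the start), TATAAA on the sense strand was in 17 of the 30 histone genes with a RefSeq promoter (56.7%), in 18 of the 77 called falls with one (23.4%), in 5.24% of 9815 matched genes of the comparison and in 9.77% of all 27025 promoters. CCAAT on either strand was in 73.3% of the histone promoters, 50.6% of the called falls, 42.9% of the matched genes and 41.1% of all promoters. The called falls include the called histone genes, so for both motifs the shares of these groups overlap. These motifs were picked after the values had been seen, and a match is a description, not a binding site.

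Genes of mitosis, a list also drawn up after the values had been seen, had 5 called falls (20.0%, against 0.819% of all genes) among 25 of 32 genes that passed the minimum count. A negative log2 change was seen in 6322 of all 12333 genes and in 24 of the 25 (median -0.42). All 5 have mean counts under 200. They were Mki67, the proliferation marker Ki-67 (-0.96 ± 0.24, adjusted p 0.0182), Kif23, a motor protein of cytokinesis (-0.83 ± 0.22, adjusted p 0.0315), Ect2, which starts the contractile ring (-0.75 ± 0.21, adjusted p 0.0447), Top2a, the topoisomerase that untangles chromosomes (-0.72 ± 0.19, adjusted p 0.0295), and Tpx2, a spindle assembly factor (-0.59 ± 0.17, adjusted p 0.0453). Ect2 and Tpx2 missed the threshold when adjusted over all named genes (0.0632 and 0.0639). The earlier, broader cell cycle list, which shares 7 genes with the mitosis list, had called falls of Mki67 and Top2a alone among 15 members and a median of -0.01, with 8 of the 15 negative. The mitotic genes are thinly counted, Mki67 having a mean normalized count of 68.4 and Kif23 of 73.9. The called mitotic genes changed in the same direction as the called precursor genes above, and what part each has in the other was not tested.

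Activity-regulated genes were the other large set. Of 63 listed genes 60 passed the minimum count, 11 fell (18.3%, against 0.819% of all genes), none rose and 50 had a negative log2 change, with a median of -0.31. Among 25 transcription factor genes the only call was Egr1, which fell by 0.54 ± 0.13 (adjusted p 0.0126), from 1009 FPKM in shCtrl vehicle. Of the 25 genes 23 had a negative change, against 6322 of all 12333 genes. With an unadjusted p under 0.05, 10 of the 25 were lower, against 885 of all genes. The deepest that did not pass the test were these: Atf3 had a log2 change of -0.81 ± 0.26, Fos of -0.72 ± 0.23, Npas4 of -0.64 ± 0.24 and Fosb of -0.59 ± 0.29. Nab2, at the other end, was at 0.16 ± 0.17. The list median was -0.35 and its median SE was 0.19, wider than the 0.12 of all genes.

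Among 35 effector genes 10 fell (28.6%, against 0.819% of all genes), 27 had a negative change and the median was -0.28. Whether the lists of effectors and transcription factors differ was not tested. Ptgs2, the inducible cyclooxygenase that makes prostaglandins, had a log2 change of -0.95 ± 0.15 (adjusted p 1.29e-06). Adcyap1, which encodes the peptide PACAP, fell by 0.84 ± 0.21 (adjusted p 0.0172), Penk, which encodes enkephalins, by 0.78 ± 0.13 (adjusted p 1.89e-06), and Scg2, which encodes secretogranin II of dense core vesicles, by 0.72 ± 0.14 (adjusted p 3.03e-04). The vesicle protein gene Syt4 fell by 0.58 ± 0.10 (adjusted p 1.40e-05). Ifrd1, a transcriptional coregulator, fell by 0.55 ± 0.08 (adjusted p 4.17e-07), and its interval is shared with Mir1938. The rest were signalling genes: Rgs2, a brake on G protein signals, at -0.46 ± 0.10 (adjusted p 1.80e-03), Gadd45g, a stress-response gene, at -0.46 ± 0.13 (adjusted p 0.0473, but 0.0668 over all named genes and 0.0527 with changes centred on the median), Plk2, a kinase that acts on synapses, at -0.43 ± 0.09 (adjusted p 3.14e-03) and Homer1, a postsynaptic scaffold, at -0.40 ± 0.07 (adjusted p 2.69e-05). Arc and Bdnf, both central to synaptic plasticity, were at -0.55 ± 0.23 and -0.35 ± 0.13 and did not pass the test. Other effectors lay near 0, such as the neuropeptide genes Vgf at 0.00 ± 0.10 and Pdyn at 0.01 ± 0.33 and the pentraxin gene Nptx1 at 0.03 ± 0.10. A positive change was seen in 8 of the 35, the highest at 0.28, and none was called.

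The cAMP response element TGACGTCA, which the activity-dependent factor CREB is known to bind, was looked for in the same RefSeq promoters on both strands. It was in 2 of the 8 called activity-regulated genes with a promoter, Scg2 and Plk2, and both windows (100 bases before to 50 after the start, GRCm38.p6) are shown with the element in capitals: Scg2 at chr1:79439977-79440126 on the minus strand and Plk2 at chr13:110394944-110395093 on the plus strand.
Scg2: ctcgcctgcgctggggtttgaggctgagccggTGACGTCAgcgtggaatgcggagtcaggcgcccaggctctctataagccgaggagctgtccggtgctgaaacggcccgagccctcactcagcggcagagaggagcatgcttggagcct
Plk2: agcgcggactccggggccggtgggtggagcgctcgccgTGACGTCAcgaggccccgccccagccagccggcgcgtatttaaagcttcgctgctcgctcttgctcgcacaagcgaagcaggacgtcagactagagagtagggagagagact
The element starts 68 bases before the start site in Scg2 and 62 in Plk2. It was in 5 of 42 activity-regulated genes with a promoter (11.9%), in 4 of 77 called falls (5.19%), in 3.75% of the 9815 matched genes and in 2.03% of all promoters. The other motifs searched on both strands were TGANTCA, in 3.90% of called falls and 6.04% of matched genes, CACGTG, in 11.7% and 11.8%, and GCGTGGGCG, in 2.60% and 1.40%. Hits were counted motif by motif, whether or not they overlapped.

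Of 17 genes that ERK signalling induces or that feed back on it 1 fell (5.88%, against 0.819% of all genes): Errfi1, an inhibitor of the EGF receptor, at -0.42 ± 0.11 (adjusted p 0.0229). The list median was -0.09. Among 17 targets of p53 2 fell (11.8%, against 0.819% of all genes), Trp53inp1, a stress-induced p53 cofactor, at -0.52 ± 0.10 (adjusted p 4.28e-04), and Plk2, which the activity list also holds. The p53 list had a median of -0.22 and 16 negative values, 7 of them at an unadjusted p under 0.05. Of all 12333 genes 6322 were negative, 885 of them at an unadjusted p under 0.05. Mdm2 at -0.12 ± 0.09 and Bax at -0.03 ± 0.13 did not pass the test.

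All 13 astrocyte markers that passed the minimum count had a negative log2 change (median -0.25), as did 6322 of all 12333 genes, and 3 fell (23.1%, against 0.819% of all genes): Aldoc, a glycolytic enzyme, at -0.56 ± 0.15 (adjusted p 0.0392, and 0.0554 over all named genes), Acsbg1, a lipid enzyme, at -0.44 ± 0.10 (adjusted p 3.80e-03), and Glul, the glutamine synthetase of astrocytes, at -0.29 ± 0.08 (adjusted p 0.0324). Gfap was at -0.27 ± 0.11 and Slc1a2, the main glutamate transporter, at -0.16 ± 0.09, and neither passed. Of 16 neuron markers 1 was called, against 0.146% of all genes called higher. This was Rbfox3, the splicing factor known as NeuN, which rose by 0.24 ± 0.07 (adjusted p 0.0494, and 0.0697 over all named genes). The list median was -0.09, with 13 of 16 values negative and 3 of them at an unadjusted p under 0.05, Nefl (-0.31 ± 0.11), Stmn2 (-0.26 ± 0.10) and Tubb3 (-0.24 ± 0.09). Of all 12333 genes 885 were lower at an unadjusted p under 0.05. Map2 was at -0.05 ± 0.13. None of 12 glutamatergic or 12 GABAergic genes was called by the authors' DESeq2 test, with medians of -0.01 and -0.02, and 1 gene of each list was lower at an unadjusted p under 0.05. None was called, or had an unadjusted p under 0.05, among the 2 myelin, 3 microglial, 1 vascular and 5 interferon-response genes that passed the minimum count. The summed FPKM of the precursor list in the shCtrl arm was 199.7 in vehicle, 156.7 in TTX and 196.4 in BIC, and that of the astrocyte list was 613.8, 512.9 and 478.7. The shCtrl vehicle group was thus the highest of the 3 control groups for both lists, by a small margin over BIC for the precursor list, and the part of this in the falls was not tested.

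The 18 rises formed no large group in the lists. The largest was Tuba8, a tubulin gene, at 0.72 ± 0.17 (adjusted p 7.68e-03), from a low mean count of 149.7. Acan, which encodes aggrecan, the core of perineuronal nets, was at 0.49 ± 0.14 (adjusted p 0.0485, and 0.0685 over all named genes). It was the 1 called member of 10 matrix genes, whose median was -0.15, against 0.146% of all genes called higher. Per2, a repressor of the circadian clock, rose by 0.46 ± 0.11 (adjusted p 6.00e-03). Of 18 clock genes, whose median was 0.00, it was the 1 called, against 0.146% of all genes called higher. Its partner Cry1 was at 0.32 ± 0.10 and Hlf at 0.24 ± 0.10 without passing, and the activator genes Clock and Arntl lay at -0.07 ± 0.10 and -0.02 ± 0.08. Among the other named rises were Glis1, a zinc finger factor, at 0.49 ± 0.12 (adjusted p 9.06e-03), Chst8, a sulfotransferase, at 0.44 ± 0.11, C2cd2l at 0.43 ± 0.11, Galnt9, a glycosyltransferase, at 0.41 ± 0.10, Ndufa8, a subunit of complex I, at 0.40 ± 0.11, and Fam222a at 0.38 ± 0.09, with adjusted p-values between 0.0150 and 0.0337. The rises of Camk1g, a calcium-dependent kinase (0.40 ± 0.11), Mnt, a partner of MAX (0.35 ± 0.10), and Csrnp2 (0.34 ± 0.10) missed the threshold when adjusted over all named genes (0.0572, 0.0604 and 0.0692).

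None of 25 glutamate receptor genes, 15 GABA receptor genes or 23 genes of synaptic scaffolds and adhesion was called by the authors' DESeq2 test, and their medians were 0.05, -0.04 and 0.02. At an unadjusted p under 0.05, which 1513 of all 12333 genes had, the counts were 2, 1 and 5 genes. The called genes Homer1 (-0.40), a scaffold listed with the activity-regulated genes, and Cnih3 (0.32), an AMPA receptor auxiliary subunit in no list, are not among them. Examples are the AMPA receptor gene Gria1 at 0.05 ± 0.10 and the NMDA receptor gene Grin1 at 0.03 ± 0.08. In the interval deleted in Smith-Magenis syndrome, which holds Rai1, none of 27 genes was called. The median was 0.08, with 22 positive values, against 6011 of all 12333 genes. An unadjusted p under 0.05 was found for 1513 of all genes and for 8 genes of this interval. Its extremes were Srebf1 at -0.24 ± 0.10, which shares its interval with Rai1, and Flcn, the folliculin gene, at 0.31 ± 0.11. A p that misses the threshold does not show that these genes were equal in both arms.

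**Figure D2:**
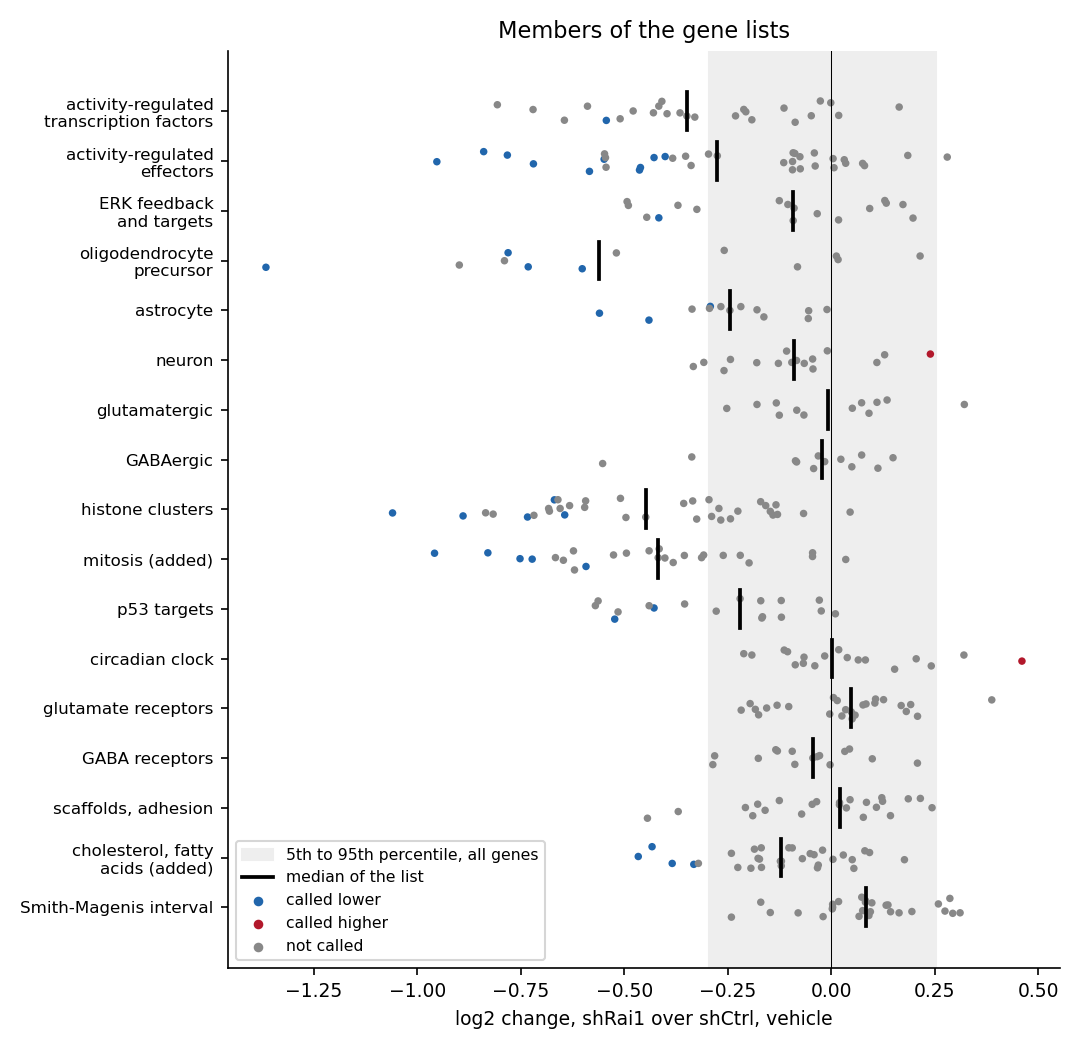
Each row is a gene list, each point a member with a mean count of at least 50, and the horizontal axis gives its log2 change in shRai1 over shCtrl cultures in vehicle. Bars mark list medians, blue points called falls, red points called rises, and grey shading the 5th to 95th percentile of all 12333 genes (-0.30 to 0.25). The medians of the precursor, histone, mitosis and activity-regulated transcription factor lists lie left of the shading, at -0.56, -0.45, -0.42 and -0.35. The shading describes single genes and is no test of a list median.

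The same contrast exists in TTX and in BIC, with other libraries in both arms. In TTX the authors' adjusted p called 6 of the 12333 genes (0.0486%), and in BIC 2 (0.0162%). Of the 101 genes that fell in vehicle, 77 had a negative change in BIC but 18 in TTX. Among all 12333 genes 5919 were negative in BIC and 6645 in TTX. The 101 genes had a median of -0.09 in BIC and 0.10 in TTX. With an unadjusted p under 0.05, 29 of the 101 (28.7%) were also lower in BIC, where 1.97% of all genes were. In TTX 24 (23.8%) were higher instead, where 1.72% of all genes were, and 0 were lower, where 2.99% of all genes were. The 18 rises mirrored this, with 17 positive in BIC and 1 in TTX and medians of 0.16 and -0.14.

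The precursor list had a median of -0.28 in BIC and of 0.06 in TTX, with 11 of 12 values negative in BIC and 3 in TTX. Pdgfra had a log2 change of -0.90 ± 0.13 in BIC (adjusted p 1.93e-07) and of 0.50 ± 0.11 in TTX (adjusted p 0.0482), both called by the authors' tables. Olig2 went from -0.49 ± 0.15 in BIC to 0.50 ± 0.14 in TTX without being called in either. Cspg4 was at -0.62 ± 0.16 in BIC and 0.38 ± 0.14 in TTX, but Olig1 was near 0 in both, at -0.10 ± 0.13 and 0.03 ± 0.12. The mitosis list had medians of -0.25 in BIC and 0.22 in TTX. The activity-regulated genes had medians of 0.08 in BIC and 0.02 in TTX, and their transcription factors alone had 0.15 and 0.00. Ptgs2, the largest fall among them in vehicle, was at -0.24 ± 0.13 in BIC and 0.54 ± 0.23 in TTX, and Adcyap1 at -0.27 ± 0.15 and 0.17 ± 0.29. Scg2 was at 0.13 ± 0.13 in BIC and 0.13 ± 0.15 in TTX, and Syt4 at 0.08 ± 0.09 and 0.07 ± 0.10. Ifrd1 was at -0.01 ± 0.08 in BIC and 0.15 ± 0.08 in TTX. Per2 and Mnt were high in BIC as in vehicle, at 0.34 ± 0.10 and 0.49 ± 0.10, and low in TTX, at -0.38 ± 0.10 and -0.39 ± 0.09, with Mnt called in both (adjusted p 0.0116 and 0.0324).

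**Figure D3:**
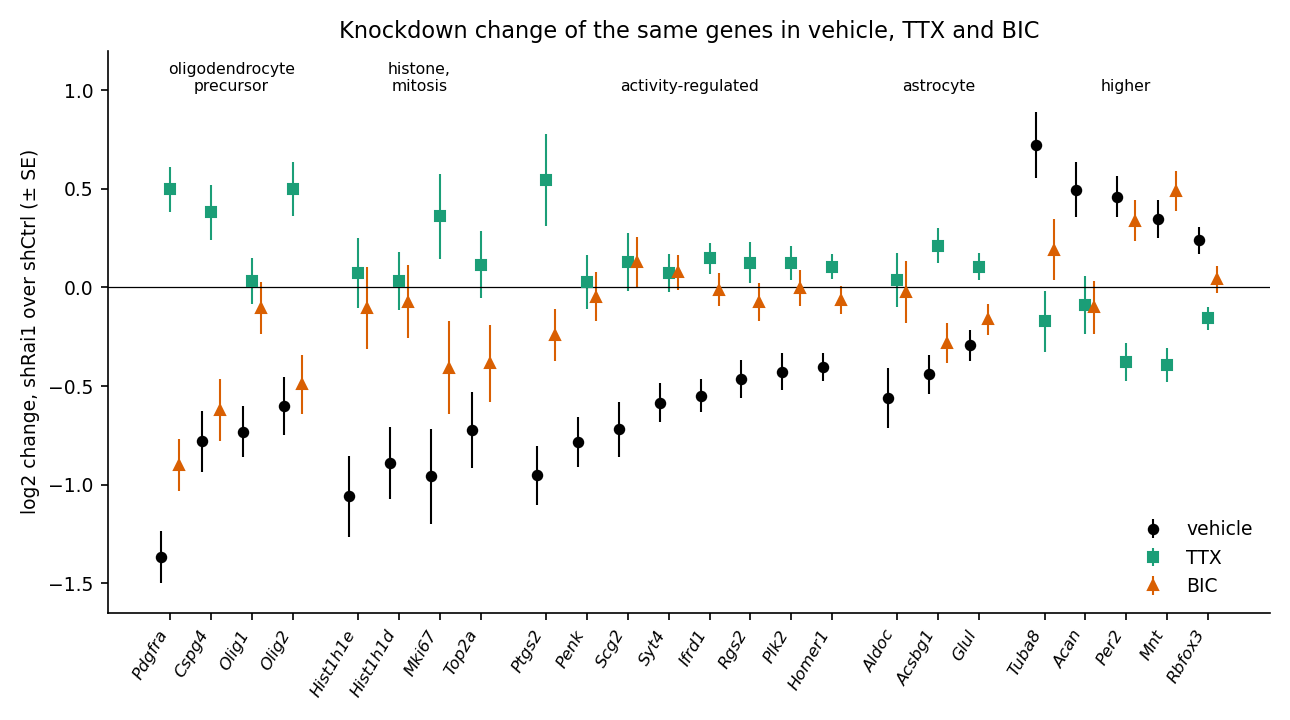
Log2 change in shRai1 over shCtrl cultures for 24 genes (horizontal axis) in vehicle (black circles), TTX (green squares) and BIC (orange triangles), with bars of ± 1 SE as deposited. Pdgfra, Cspg4 and Olig2 are low in vehicle and BIC and high in TTX, while Scg2 and Syt4 are low in vehicle and near 0 in both other treatments and Ptgs2 is high in TTX.

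The difference between contrasts was tested gene by gene, as the knockdown change in vehicle minus that in TTX or BIC. Against TTX it passed an adjusted p of 0.05 for 156 of the 12333 genes (1.26%), of which 94 were below 0 and 62 above, and in all 156 the changes had opposite signs in vehicle and TTX. They included 56 of the 101 falls and 11 of the 18 rises. The falls and rises were picked by their change in vehicle, which is a term of the difference. Their share among the differences is thus raised by the picking and is no independent support. Pdgfra differed by -1.86 ± 0.17, Sox10 by -1.59 ± 0.35, Ptgs2 by -1.496 ± 0.28 and Per2 by 0.84 ± 0.14. Of the 60 activity-regulated genes 9 differed against TTX, as did 5 of 12 precursor genes and 5 of 35 histone genes. Against BIC the difference passed for 4 genes (0.0324%), Scg2 (-0.85 ± 0.19), Syt4 (-0.66 ± 0.13), Zdbf2 (-0.65 ± 0.13) and Ifrd1 (-0.54 ± 0.12), with 497 genes at an unadjusted p under 0.05. Of these 4, 3 belong to the activity-regulated list. Zdbf2, an imprinted gene that shares its interval with Gpr1, had itself fallen by 0.55 ± 0.09 in vehicle (adjusted p 1.32e-05). The precursor genes had no member among them.

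Whether the change in vehicle followed a gene's response to activity was described with the change from TTX to BIC, which uses no vehicle library. Genes at least 2-fold higher in BIC than in TTX (log2 of at least 1, mean of both arms) numbered 1128, had a median knockdown change of -0.07 and held 27 called falls, or 2.39%. Those at least as much lower in BIC numbered 743, with a median of 0.04 and 6 called falls (0.808%), and the 10462 between had a median of -0.00 and 68 called falls (0.65%). At a log2 response of 2 or more, 247 genes had a median of -0.11 and 11 called falls (4.45%). With the listed activity-regulated genes left out, 1079 genes remained above 1, with a median of -0.06 and 16 called falls (1.48%). Across the 12333 genes, which are not independent replicates, Pearson's r between response and knockdown change was -0.16, so the slope is shallow beside the scatter. Most of the called falls, 68 of 101, lay between the bounds of 1 in either direction, but so did a larger share of all genes, 10462 of 12333. Acan went against the slope: among the most induced genes, with a response of 4.95, it was higher in the shRai1 cultures.

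**Figure D4:**
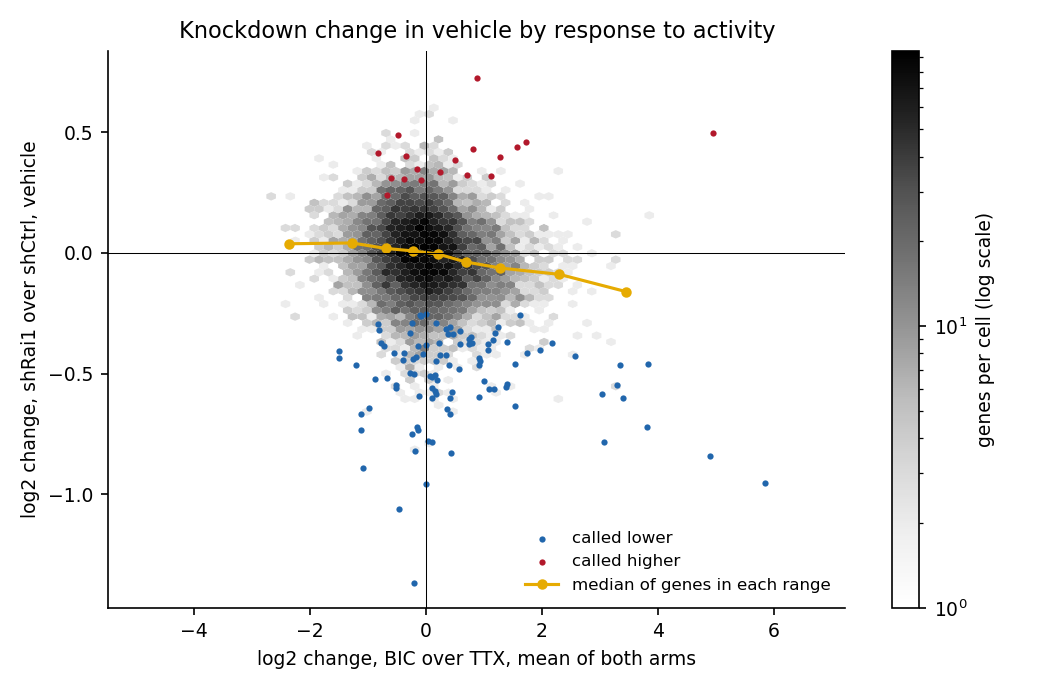
The log2 knockdown change in vehicle (vertical axis) is plotted against the log2 change from TTX to BIC averaged over both arms (horizontal axis), as a density of all 12333 genes with called falls in blue and called rises in red. The yellow line joins medians of genes in 9 ranges of response and goes from 0.04 at the left to -0.16 at the right, and Pdgfra lies at -0.20 on the horizontal axis.

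Length was described for the 9855 genes that share their interval with no other gene. Genes of up to 3 kb, 415 in number and with the histone genes among them, had a median change of -0.10 and 11 called falls (2.65%) with no rise. From 3 to 10 kb and from 10 to 30 kb the medians were both 0.03, and they were -0.03, -0.05 and -0.05 for 30 to 100 kb, 100 to 300 kb and above 300 kb. Called falls were 1.22% of genes from 3 to 10 kb and between 0.303% and 0.824% of longer ones. Pearson's r with log10 length was -0.07 over these genes. Over all 12333 genes, the share called lower by mean count ran from 0.528% at 50 to 200 to 1.16% at 1000 to 3000. Of the 119 called genes 18 lie in an interval shared with other genes, where FPKM and length belong to all of them.

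**Figure D5:**
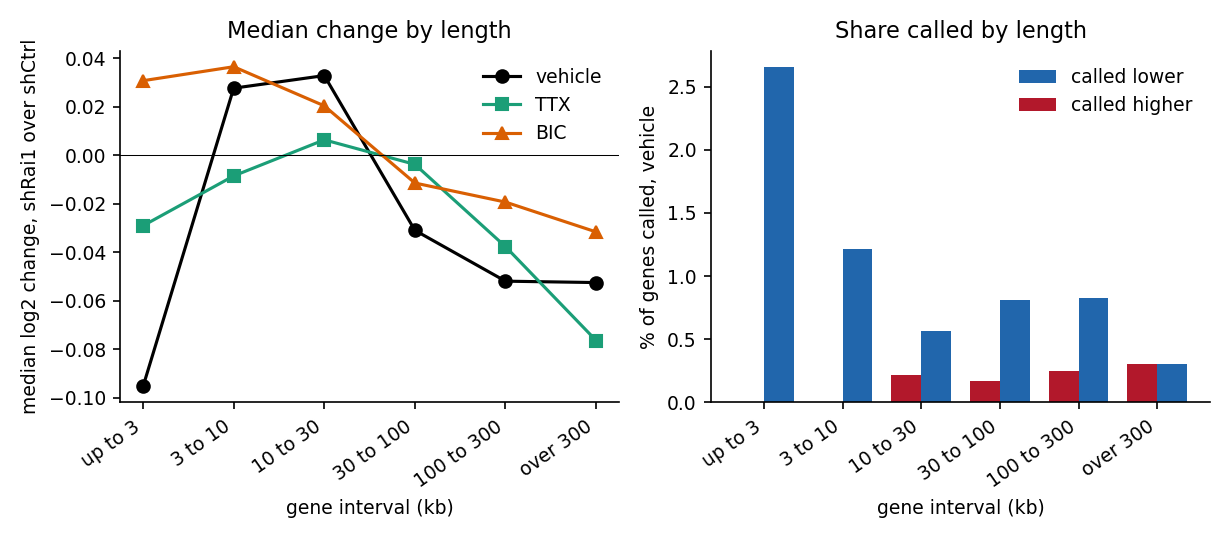
Left, the median log2 change of shRai1 over shCtrl cultures by length of the gene interval, for vehicle, TTX and BIC. Right, the percentage of genes called lower (blue) or higher (red) in vehicle in the same classes of length, with bars starting at 0. Genes of up to 3 kb are the lowest in vehicle, at -0.10, and hold the largest share of called falls, 2.65%, and the medians in TTX and BIC at that length are -0.03 and 0.03.

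The minimum count left out 3 genes that the authors' adjusted p called. Tmem255b, at a mean of 34.1, had a log2 change of -1.12, and the histone genes Hist1h1b, at 38.1, and Hist1h3g, at 49.0, had -1.11 and -0.94. The called genes just above the minimum were Mki67 at 68.4, Kif23 at 73.9, Pros1 at 80.7, Mybl1 at 82.1 and Ect2 at 82.7. Pros1, a ligand of TAM receptors, had a log2 change of -0.82 ± 0.21 and Mybl1, a MYB family factor, of -0.78 ± 0.20.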

How the data were processed

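Nascent RNA of 5 Bru-seq libraries (3 shRai1, 2 shCtrl, vehicle) was compared. Reads were aligned with TopHat2 2.1.0 and Bowtie2 2.2.6 to mm9 and compared with DESeq2, per the submitters' processing notes. The deposited table gives, per the file headers, a mean normalized count (a signal averaged over libraries), a log2 fold change, its SE, a Wald statistic (a score), a p-value and its adjusted form. The authors also deposited 1 pooled FPKM with bounds per condition, whose intervals are given here 1-based. Depth per library is unknown.

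The table of this comparison lacks gene names. They were assigned by mean counts unique in another table, which named 20107 genes and left 1085 tested genes, with means of at most 0.306, unnamed. The log2 changes of the 7 tables closed to within 1e-09. The deposited changes of thinly counted genes are small: among genes with a mean under 1 none exceeded 0.53, so folds of low genes may be understated.

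Calls use the authors' adjusted p under 0.05. Differences between contrasts, which share no library, were computed here from the deposited changes. They used the root of the summed squared SEs, a two-sided Wald test and Benjamini-Hochberg adjustment over all named genes. The computation was also run on simulated data, and its outcome is not given here. FPKM columns whose names begin with Scram were taken as shCtrl, and Unt as vehicle; their TTX and BIC ratios to untreated each had r of 0.79 with the deposited shCtrl response. FPKM columns named for the knockdown were not used as shRai1 levels: the log2 ratio of the untreated knockdown column to the untreated control had r of 0.72 with the shRai1 response to TTX and of 0.31 with the knockdown in vehicle, over 8906 genes (pseudocount 0.5).

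The 21 gene lists, the members and the tests were chosen with earlier results of these data known, and 4 further lists and 2 motifs after the values were seen. Named genes were Rai1, the 12 largest falls, 12 largest rises and 8 smallest adjusted p-values among calls, called members of lists (at most 8 per list) and the 3 largest differences in each direction; others named with values are list members or were chosen after their values were seen. Alternatives were the threshold, the genes adjusted over, the minimum count, centring on the median, and the arm and bound of the response. Python 3.11.15 with pandas 2.3.3, scipy 1.17.1 and numpy 2.4.6 was used.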

Additional observations from a re-analysis of the deposited data

Results flagged for a closer look

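The knockdown change differed between vehicle and another treatment, by the test of the difference itself, for 156 genes against TTX and for 4 against BIC. Differences below are log2 changes in vehicle minus those in TTX unless BIC is named, and each had an adjusted p under 0.05 in a two-sided Wald test over all named genes.

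Among precursor genes the differences were Pdgfra -1.86, Sox10 -1.59, Cspg4 -1.16, Olig2 -1.10 and Olig1 -0.76. Differences among the 5 histone and 3 mitosis genes that passed included Mki67 -1.32, Ect2 -1.19, Hist1h1e -1.14, Hist1h3e -0.98, Hist1h1d -0.92 and Hist1h4k -0.84. The 9 activity-regulated genes that differed included Ptgs2 at -1.496, Scg2 at -0.85, Penk at -0.81 and Ifrd1 at -0.70. Also among them were Syt4 at -0.66, Rgs2 at -0.59, Plk2 at -0.55 and Homer1 at -0.51.

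Other genes among the 94 below 0 included Mybl1 at -1.21, Pros1 at -1.13, Trp53inp1 at -0.94 and Trib3, a stress-induced pseudokinase, at -0.90. Acsbg1 was at -0.65, Zdbf2 at -0.58, Fads2, a fatty acid desaturase, at -0.50 and Glul at -0.40. Dhrs1 at -1.20 and Kctd12 at -1.07 were also among the 94. Among the 62 above 0 were Gdf10 at 1.24, Piwil2 at 1.14 and Rhpn1 at 1.02, none of which was called in vehicle alone. The 11 called rises above 0 included Tuba8 at 0.90, Per2 at 0.84, Glis1 at 0.75, Mnt at 0.74 and Camk1g at 0.61. C2cd2l was at 0.56, Galnt9 at 0.55, Fam222a at 0.53 and Rbfox3 at 0.40, and Cnih3 and Cables1 were both at 0.47.

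Against BIC the differences were Scg2 at -0.85, Syt4 at -0.66, Zdbf2 at -0.65 and Ifrd1 at -0.54.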

How the results depend on the processing

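No paired analysis was possible because the files hold no value per library; for the same reason no library could be left out, and whether 1 library carries a call was not tested. At an adjusted p of 0.1 the calls were 201 (161 lower, 40 higher), and at 0.01 they were 35 (32 lower, 3 higher), with 55 differences against TTX and 0 against BIC. Adjusted over all named genes, without the authors' filter, 10 rises remained, 83 of the 119 calls were shared, and these genes given in the text missed the threshold: Acan, Aldoc, Cables1, Calb1, Camk1g, Csrnp2, Ect2, Gadd45g, Hist1h2bg, Hist1h3e, Hist1h4k, Hspa5, Mnt, Rbfox3, Rps20, Tpx2 and Trib3. Falls were 80.1% to 91.4% of calls under the settings run. With a minimum count of 200, list medians moved to -0.39 for precursor genes, 0.16 for myelin genes and -0.47 for microglial genes (1 member left in each of the last 2), and the cell cycle and histone lists had 0 called members, since theirs have lower counts, as do all 5 called genes of the mitosis list (means of 68.4 for Mki67 to 164 for Tpx2). The signs of the myelin and microglial medians, neither with a called member, thus turned from -0.06 and 0.02. The other 95 summary values stayed within 1.5 times or the spread. The standard error, not a known depth, limits what could be detected.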

Other observations

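Lists of lipid synthesis, protein folding and ribosomal protein genes were drawn up after the values had been seen. Of 31 genes of cholesterol and fatty acid synthesis 4 fell in vehicle (12.9%, against 0.819% of all genes), among them Hmgcs1 (-0.47 ± 0.09, SE), which catalyses an early step of cholesterol synthesis, and the desaturase genes Scd1 (-0.43 ± 0.11) and Fads2 (-0.38 ± 0.08). The list median was -0.12, and Fdft1 at -0.09 ± 0.09 and Fasn at -0.10 ± 0.09 did not pass the test. Of 16 genes of the endoplasmic reticulum stress response 3 fell (18.8%, against 0.819% of all genes): Trib3 (-0.56 ± 0.15), Hsp90b1 (-0.37 ± 0.10) and Hspa5 (-0.36 ± 0.10), the last 2 chaperones of that compartment. The median was -0.07, and Trib3 and Hspa5 missed the threshold when adjusted over all named genes (0.0604 and 0.0572). Of 75 ribosomal protein genes 1 fell (1.33%, against 0.819% of all genes), Rps20 (-0.57 ± 0.16, 0.0632 over all named genes). A negative change was seen in 63 of the 75, against 6322 of all 12333 genes, and the list median was -0.12.

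Of the 119 called genes 78 are in none of the lists, and the following were picked after their values had been seen. Malat1, a nuclear noncoding RNA, fell by 0.51 ± 0.11 on the log2 scale. Further single falls were those of the tubulin gene Tuba1a by 0.44 ± 0.11, Tmsb4x by 0.45 ± 0.10, Eef1a1 by 0.32 ± 0.08 and Ywhaz by 0.29 ± 0.08 on the log2 scale. The potassium channel gene Kcnj10 was at -0.37 ± 0.09, the lipid carrier gene Fabp7 at -0.51 ± 0.14 and the transporter gene Slco1c1 at -0.57 ± 0.12. Chd7, a chromatin remodeller, was at -0.31 ± 0.07 and Ets1, a transcription factor, at -0.60 ± 0.15. Calb1, the calcium buffer calbindin, was at -0.60 ± 0.16 and missed the threshold over all named genes (0.0528). Cnih3, an AMPA receptor auxiliary subunit, rose by 0.32 ± 0.08.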
